A study of Homo sapiens with 20 samples.

Results

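Plasminogen activation was followed through 8 genes, chosen by name: the activators PLAT and PLAU, the cell surface receptors PLAUR, ANXA2 and S100A10, and the inhibitors SERPINE2, SERPINB2 and A2M. They are 8 of the 58870 genes of the RNA-seq table, and 35 of the 54563 consensus FRA1 peaks overlapped a member or lay within 10 kb of it. RNA-seq was performed in A375 and 1205Lu cells, established human melanoma cell lines, treated with control siRNA that targets no gene (si-NT) or siRNAs that silence FRA1 (si-FRA1), and the 12 samples fell into 4 groups of 3 replicates. Cut&Run, which releases the DNA around an antibody's target with a tethered nuclease, was performed in both cell lines with a FRA1 antibody (3 replicates per cell line) or with control IgG (1 sample per cell line). Each cell line is a single line, so a difference between A375 and 1205Lu is one between 2 lines.

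Plasminogen is an inactive precursor that tissue-type activator (tPA, encoded by PLAT) and urokinase (uPA, encoded by PLAU) cut into plasmin, a protease that degrades fibrin and extracellular matrix. The uPA receptor (PLAUR) holds urokinase at the cell surface, while annexin A2 (ANXA2) and its partner S100A10 form a complex that holds plasminogen and tPA there. Protease nexin 1 (SERPINE2) and plasminogen activator inhibitor 2 (SERPINB2) trap the activators, and alpha-2-macroglobulin (A2M) is a broad protease inhibitor that also captures plasmin. FRA1, encoded by FOSL1, is a subunit of the AP-1 transcription factor, whose consensus site is TGACTCA or, read on the other strand, TGAGTCA.

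The AP-1 sites in the peaks of these genes are shown first. The Cut&Run counts below were measured over whole peaks, with or without such a site. Of the 35 peaks, 23 (65.7%) held at least 1 exact TGACTCA or TGAGTCA on either strand, beside 57.7% of all 54563 consensus peaks, and 34 such sites were found in all. Most member peaks were wider than 715 bp, the median of all consensus peaks, and a wider peak has more room for a site. Shares here and below were not matched for width. Within 100 bp of the peak centre, 7 of the 35 held a site, against 28.6% of all peaks. In the RefSeq promoter table (GRCh38.p14, 250 bases before to 50 after each start), 1738 of 35116 windows (4.95%) held the site, and the windows of PLAUR and ANXA2 held 1 each. Windows of S100A10, SERPINB2, PLAU and SERPINE2 held none, and PLAT and A2M had no entry there. A match is a description of the letters and not a measure of binding.

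The genomic sequences below are from GRCh38, 5′ to 3′ on the strand of the gene, with the AP-1 letters in capitals, and were picked to show sites in the peaks over the starts of PLAUR, ANXA2 and S100A10, in the 3 PLAU peaks and in some of the other peaks described further on, whether or not their counts differed between the cell lines. The PLAT sites are not shown, although the peaks that hold them include those at -7.7 and -2.3 kb, with larger differences than any peak shown. Positions are those of the middle base of the site relative to the main transcription start. Windows that touch an annotated UTR are kept to 29 bases.
PLAU, chr10:73899513-73899559, plus strand, site 11596 bases before the start: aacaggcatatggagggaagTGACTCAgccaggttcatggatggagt
PLAU, chr10:73907249-73907295, plus strand, site 3860 bases before the start: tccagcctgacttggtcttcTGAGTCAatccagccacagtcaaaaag
PLAU, chr10:73909414-73909460, plus strand, site 1695 bases before the start: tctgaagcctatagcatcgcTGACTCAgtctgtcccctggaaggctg
PLAUR, chr19:43670338-43670366, minus strand, site 183 bases before the start: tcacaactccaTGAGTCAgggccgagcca
PLAUR, chr19:43669108-43669154, minus strand, site 1038 bases after the start: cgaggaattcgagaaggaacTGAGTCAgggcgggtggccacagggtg
ANXA2, chr15:60398096-60398124, minus strand, site 124 bases before the start: gcgggccggggTGAGTCAcccctgacttg
ANXA2, chr15:60397172-60397218, minus strand, site 791 bases after the start: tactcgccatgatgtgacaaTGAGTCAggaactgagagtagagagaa
ANXA2, chr15:60374730-60374776, minus strand, site 23233 bases after the start: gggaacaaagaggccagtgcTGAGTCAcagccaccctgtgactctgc
S100A10, chr1:151992621-151992667, minus strand, site 1215 bases after the start: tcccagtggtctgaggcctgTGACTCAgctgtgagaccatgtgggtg
S100A10, chr1:151980692-151980738, minus strand, site 13144 bases after the start: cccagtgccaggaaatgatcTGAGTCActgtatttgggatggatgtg
S100A10, chr1:151976947-151976993, minus strand, site 16889 bases after the start: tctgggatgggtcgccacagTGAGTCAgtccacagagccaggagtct
SERPINE2, chr2:224025516-224025562, minus strand, site 13747 bases after the start: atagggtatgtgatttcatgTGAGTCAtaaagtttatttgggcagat
SERPINE2, chr2:224026248-224026294, minus strand, site 13015 bases after the start: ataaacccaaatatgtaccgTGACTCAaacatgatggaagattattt
SERPINB2, chr18:63881715-63881761, plus strand, site 5967 bases before the start: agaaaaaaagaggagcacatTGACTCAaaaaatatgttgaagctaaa
SERPINB2, chr18:63882736-63882782, plus strand, site 4946 bases before the start: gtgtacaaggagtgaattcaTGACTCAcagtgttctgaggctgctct
The PLAUR site lay 183 bases and the ANXA2 site 124 bases before the respective start. Each of the 3 PLAU peaks held 1 site, all upstream of the main start.

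Total counts per RNA-seq sample lay between 20573412 and 32518903. The FOSL1 mRNA checked the labels: it fell from 414 ± 8.32 CPM (counts-per-million units, read counts relative to the library's total, scaled over all 12 samples; mean ± SD, n = 3) to 25.8 ± 0.184 CPM in A375 and from 484 ± 7.31 to 68.3 ± 3.02 CPM in 1205Lu, with log2 fold changes of -4.01 and -2.84. Of 8 melanocyte and melanoma markers, 5 reached 1 CPM in a group of A375 and 4 in 1205Lu. SOX10 lay between 32.5 and 43.9 CPM in A375 and between 783 and 912 CPM in 1205Lu (group means), MITF between 52.1 and 64.0 and between 3.26 and 3.54 CPM, whereas the pigment genes PMEL, MLANA, TYR and DCT did not exceed 1.13 CPM in any group. The 4 markers of epithelium stayed at or below 0.586 CPM and the 3 of endothelium at or below 1.398 CPM (VWF in 1205Lu), and none of those tested was called on FRA1 silencing. Of 3 leukocyte markers, PTPRC and CD3E stayed at or below 0.323 CPM. CD68 fell with FRA1 silencing, from 77.9 ± 0.987 to 57.9 ± 1.87 CPM in A375 and from 17.3 ± 0.643 to 7.52 ± 0.875 CPM in 1205Lu. Of 4 fibroblast markers, PDGFRB rose in both lines, from 21.6 ± 1.39 to 37.8 ± 0.483 and from 6.51 ± 0.825 to 14.9 ± 0.965 CPM, while COL1A1 rose in A375, from 11.1 ± 0.330 to 21.8 ± 0.804 CPM, as did LUM, to at most 1.79 CPM, and DCN stayed at or below 0.747 CPM. Summed over the 4, the samples lay at 31.6 to 34.6 CPM with si-NT and 61.2 to 62.4 CPM with si-FRA1 in A375, and at 7.99 to 10.5 and 16.3 to 18.8 CPM in 1205Lu. These markers thus moved with the silencing beside the members, and their part in the results was not tested. In bulk RNA, fewer cells that express a gene and less RNA per cell cannot be told apart.

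FRA1 silencing lowered PLAT in both cell lines and raised A2M in both, while PLAU rose in A375 cells and the ANXA2 and S100A10 receptor pair fell in 1205Lu cells, S100A10 also in A375. A member was called at an adjusted p under 0.05, in the quasi-likelihood test of edgeR, adjusted by Benjamini-Hochberg over all genes tested. In A375 cells, 3 of the 7 members tested rose, beside 25.7% of the 16899 genes tested, and 2 fell, beside 25.1%. In 1205Lu cells, 2 of 6 rose, beside 20.6% of 17136 genes, and 4 fell, beside 19.9%. With a log2 fold change over 1 required as well, 2 members rose and 1 fell in A375 (2.77% and 2.79% of all genes), and 1 rose and 1 fell in 1205Lu (1.09% and 2.04% of all genes). The median log2 fold change of the members tested was 0.06 in A375 and -0.30 in 1205Lu, against -0.0026 and -0.0048 over all genes tested. Nothing in the sources used here says that replicates came from separate cultures, so the p-values measure the spread between these samples.

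**Figure D1:**
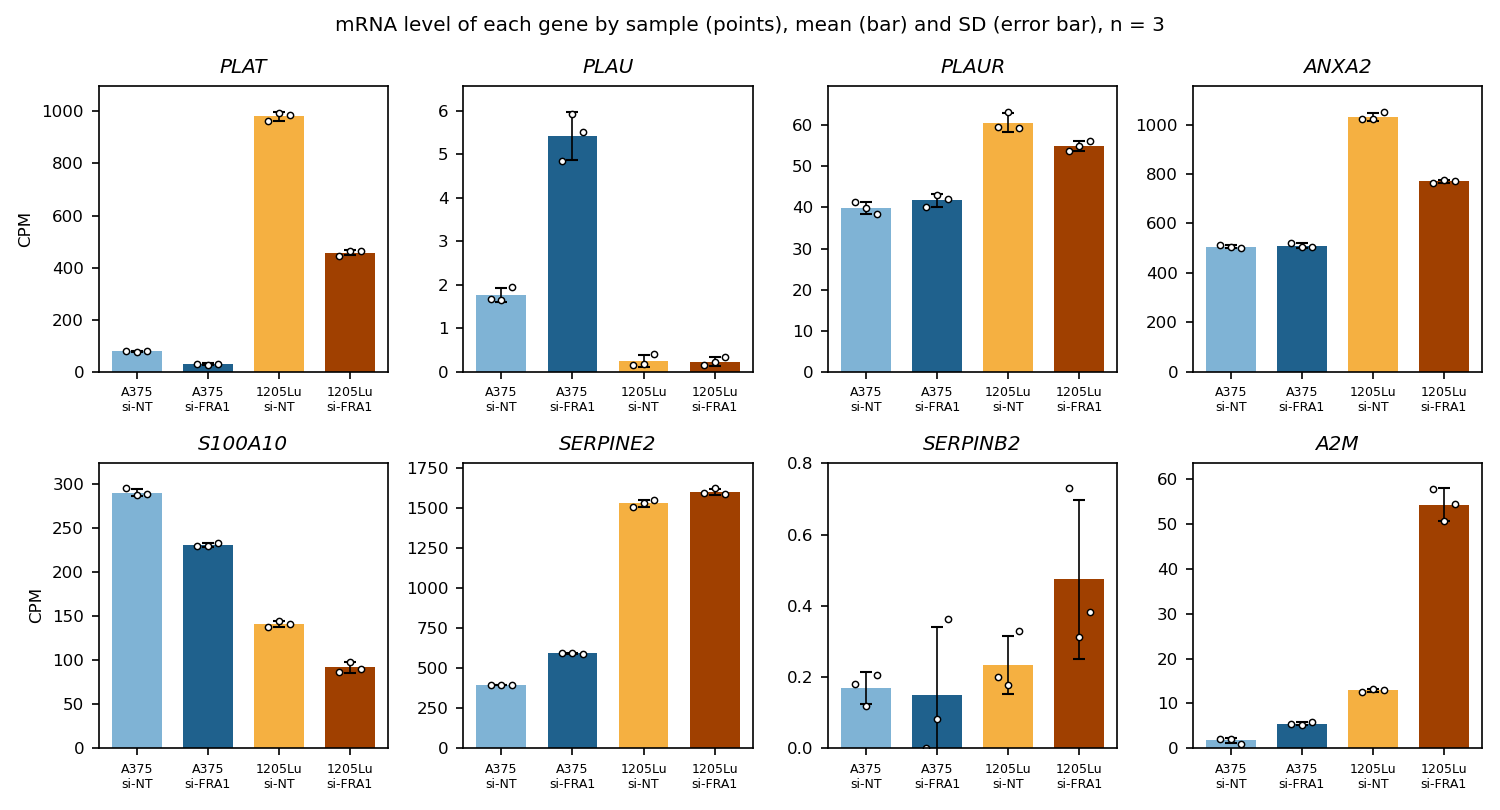
mRNA level in CPM (y axis, from 0, a different scale in each panel) of the 8 genes in the 4 groups. Points are the 3 samples, bars the mean and error bars the SD, drawn only above 0. PLAT was lower and A2M higher in every si-FRA1 sample than in every si-NT sample of the same cell line.

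PLAT encodes tPA and lies on chromosome 8 (chr8:42174718-42207709, minus strand, GRCh38). In A375 cells it measured 79.3, 76.7 and 81.6 CPM in the si-NT samples and 31.9, 24.9 and 29.2 CPM in the si-FRA1 samples. All 3 silenced samples lay below all 3 controls, with a log2 fold change of -1.46 (SE 0.062, adjusted p = 1.3e-15), or 2.76-fold lower. In 1205Lu cells PLAT measured 962, 993 and 987 CPM in the si-NT samples and 445, 464 and 464 CPM in the si-FRA1 samples. These groups did not overlap either, and the log2 fold change was -1.12 (SE 0.018, adjusted p = 5.9e-20), or 2.17-fold lower. The fall was steeper in A375, with a difference between the responses of -0.36 on the log2 scale (A375 minus 1205Lu, SE 0.061, adjusted p = 4.7e-05). Every silenced 1205Lu sample still exceeded every A375 control. The baseline log2 difference (A375 minus 1205Lu, si-NT) was -3.71 (SE 0.024, adjusted p = 4.4e-27), or 13.0-fold lower in A375.

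PLAU, which encodes urokinase, lies on the plus strand of chromosome 10 (chr10:73909177-73917496). It was a low mRNA in both cell lines. In A375 it measured 1.67, 1.66 and 1.95 CPM in the si-NT samples and 4.83, 5.92 and 5.50 CPM in the si-FRA1 samples, from 37 to 158 counts per sample. The groups were apart, and PLAU rose by a log2 fold change of 1.61 (SE 0.18, adjusted p = 7.0e-08), or 3.05-fold, the direction opposite to that of PLAT. In 1205Lu the counts were 5, 4 and 10 with si-NT and 3, 5 and 7 with si-FRA1, too few to pass the filter on low counts. Without that filter the log2 fold change there was -0.09 (SE 0.80, adjusted p = 0.97), an error too wide to show whether PLAU changed there. In the fit over all 12 samples PLAU passed the filter on low counts through A375 alone. There the response in A375 exceeded that in 1205Lu by 1.70 on the log2 scale (A375 minus 1205Lu, SE 0.55, adjusted p = 0.019). That call was lost without 1205Lu si-NT replicate 3 (1.17, adjusted p = 0.19), without 1205Lu si-FRA1 replicate 1 (1.45, adjusted p = 0.058) and without the filter (1.68, adjusted p = 0.071). With si-NT, PLAU was higher in A375, with a log2 difference of 2.73 (SE 0.42, adjusted p = 7.4e-06). The antisense gene C10orf55 overlaps PLAU and had 0 to 6 counts per sample.

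PLAUR, the urokinase receptor gene (chr19:43646095-43670547, minus strand), moved little. In A375 cells it measured 41.4, 39.9 and 38.4 CPM in the si-NT samples and 40.01, 43.0 and 42.1 CPM in the si-FRA1 samples. These values overlapped, and the log2 fold change of 0.06 (SE 0.051, adjusted p = 0.37) had a 95% interval from -0.05 to 0.16. In 1205Lu cells the samples measured 59.5, 63.2 and 59.3 CPM in the si-NT samples and 53.8, 55.0 and 56.1 CPM in the si-FRA1 samples. The silenced samples all lay lower, by a log2 fold change of -0.16 (SE 0.044, adjusted p = 0.006), or 1.12-fold, and the call was lost without si-NT replicate 2 (-0.12, adjusted p = 0.052). The responses differed by 0.20 on the log2 scale (A375 minus 1205Lu, SE 0.067, adjusted p = 0.02), a call lost in 5 of the 12 fits that left out 1 sample (0.17 to 0.19, adjusted p between 0.050 and 0.076) and without the filter on low counts (0.18, adjusted p = 0.074). The 5 samples were 1205Lu si-NT replicate 2, 1205Lu si-FRA1 replicate 1, A375 si-NT replicate 3 and A375 si-FRA1 replicates 2 and 3. At baseline PLAUR was lower in A375, with a log2 difference of -0.68 (SE 0.047, adjusted p = 6.8e-11).

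ANXA2 (chr15:60347134-60402883, minus strand) fell in 1205Lu cells. There it measured 1021, 1021 and 1051 CPM in the si-NT samples and 762, 778 and 770 CPM in the si-FRA1 samples. The groups were well apart, with a log2 fold change of -0.44 (SE 0.015, adjusted p = 1.2e-14), or 1.36-fold lower. In A375 the values were 514, 505 and 501 CPM and 521, 506 and 505 CPM. They overlapped, and the 95% interval of the log2 fold change, 0.0067 (adjusted p = 0.80), ran from -0.03 to 0.05. The difference between the 2 responses was itself called, at 0.43 on the log2 scale (A375 minus 1205Lu, SE 0.026, adjusted p = 1.6e-12). ANXA2 has processed pseudogene copies, of which ANXA2P2 had 68 to 196 counts per sample and ANXA2P1 and ANXA2P3 at most 5, against at least 11365 counts for ANXA2. With si-NT it was lower in A375, with a log2 difference of -1.10 (SE 0.017, adjusted p = 2.5e-21).

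S100A10, the plasminogen-binding partner of annexin A2 (chr1:151982915-151993859, minus strand), fell in both cell lines. In A375 it measured 295, 288 and 289 CPM in the si-NT samples and 229, 230 and 233 CPM in the si-FRA1 samples. The log2 fold change was -0.34 (SE 0.023, adjusted p = 1.0e-11), or 1.26-fold lower. In 1205Lu it measured 138, 144 and 142 CPM in the si-NT samples and 87.2, 98.5 and 89.8 CPM in the si-FRA1 samples. No silenced sample reached its controls in either line, and the 1205Lu log2 fold change was -0.64 (SE 0.038, adjusted p = 4.0e-11), or 1.56-fold lower. The fall was smaller in A375 than in 1205Lu by 0.29 on the log2 scale (A375 minus 1205Lu, SE 0.046, adjusted p = 1.8e-05). Unlike ANXA2, its partner S100A10 was the higher in A375 at baseline, with a log2 difference of 0.97 (SE 0.027, adjusted p = 2.3e-17).

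SERPINE2, which encodes protease nexin 1, an inhibitor of both activators and of thrombin (chr2:223975045-224039318, minus strand), rose mainly in A375. It measured 397, 394 and 394 CPM in the si-NT samples and 597, 594 and 592 CPM in the si-FRA1 samples in A375 cells. The groups were far apart relative to their spread, with a log2 fold change of 0.58 (SE 0.018, adjusted p = 5.2e-18), or 1.498-fold higher. In 1205Lu the values were 1508, 1530 and 1552 CPM and 1592, 1621 and 1589 CPM. Here the silenced samples were only slightly higher, by 0.05 (SE 0.014, adjusted p = 0.0073) on the log2 scale, or 1.03-fold. The responses differed by 0.52 on the log2 scale (A375 minus 1205Lu, SE 0.022, adjusted p = 1.5e-15). At baseline SERPINE2 was 4.08-fold lower in A375, a log2 difference of -2.03 (SE 0.016, adjusted p = 4.9e-26).

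A2M (chr12:9067664-9116229, minus strand) rose in both cell lines. In A375 it measured 2.03, 2.17 and 1.03 CPM in the si-NT samples and 5.42, 5.25 and 5.78 CPM in the si-FRA1 samples, from 25 to 177 counts per sample. Every silenced sample was above every control, with a log2 fold change of 1.64 (SE 0.21, adjusted p = 4.8e-07), or 3.12-fold. In 1205Lu it measured 12.6, 13.3 and 12.9 CPM in the si-NT samples and 57.9, 50.7 and 54.3 CPM in the si-FRA1 samples. The groups were again apart, with a log2 fold change of 2.06 (SE 0.066, adjusted p = 2.8e-15), or 4.16-fold. The difference between the responses, -0.42 on the log2 scale (A375 minus 1205Lu, SE 0.20, adjusted p = 0.11), was not called, with a 95% interval from -0.84 to -0.01. A375 si-NT replicate 3, the lowest control, decided this: without it the difference was -0.70 (adjusted p = 0.0033). With si-NT, A2M was lower in A375 by a log2 difference of -2.96 (SE 0.18, adjusted p = 1.1e-11). The gene A2M-AS1 overlaps A2M on the opposite strand and had 9 to 39 counts per sample. The libraries were strand-specific but the strand setting of the counting is not given in the sources used here, so reads of the overlapping pairs may not have been told apart.

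SERPINB2 (chr18:63871692-63903888, plus strand) was close to the detection limit in all groups. Its counts were 4, 3 and 5 with si-NT and 0, 2 and 9 with si-FRA1 in A375, and 6, 4 and 8 with si-NT and 15, 7 and 8 with si-FRA1 in 1205Lu. The groups overlapped in both lines. It did not pass the filter on low counts, and without the filter the log2 fold changes were -0.20 (SE 1.01, adjusted p = 0.93) in A375 and 1.00 (SE 0.69, adjusted p = 0.44) in 1205Lu.

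**Figure D2:**
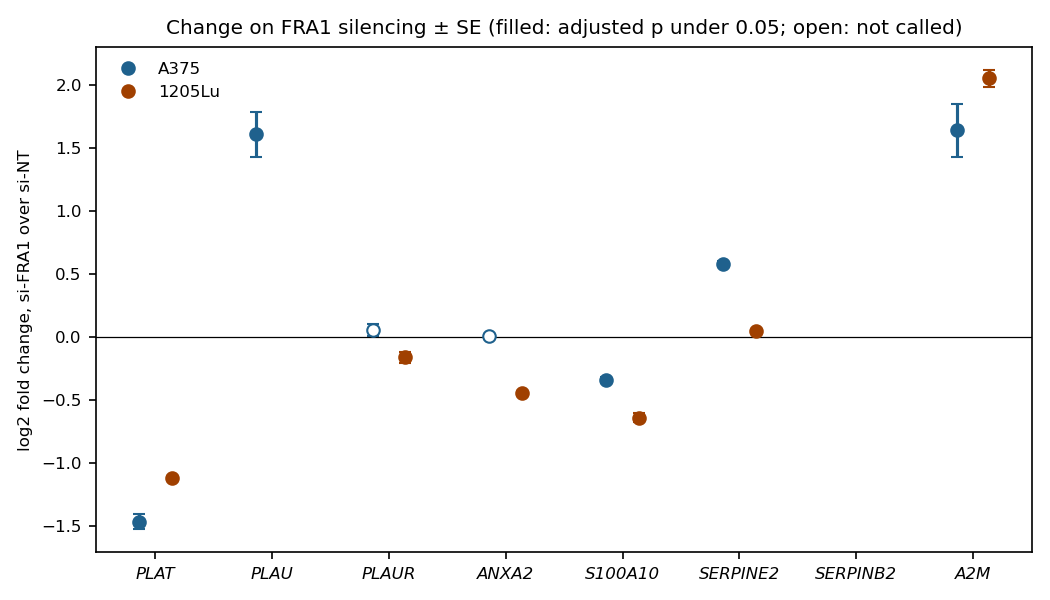
Log2 fold change on FRA1 silencing (si-FRA1 over si-NT) of each gene in A375 and 1205Lu cells, with SE. Filled points were called and open points not; SERPINB2 in both lines and PLAU in 1205Lu were not tested. PLAT lay below 0 and A2M above 0 in both cell lines.

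The size of the response was thus compared between the cell lines for 7 members, and 6 were called as different. PLAU, 1 of these 6, passed the filter on low counts through A375 alone. The difference (A375 minus 1205Lu) was positive for 5, beside 15.3% of the 19452 genes tested, and negative for 1, PLAT, beside 16.6%. A positive value stood for a rise in A375 of a gene too low to test alone in 1205Lu (PLAU), a larger rise in A375 (SERPINE2), a smaller fall (S100A10), or a fall called in 1205Lu alone (ANXA2, PLAUR). The lines also differed at baseline. With si-NT, 2 of 7 members (PLAU, S100A10) were higher in A375, beside 39.2% of 18050 genes, and 5 lower, beside 38.8%. PLAU was past a log2 difference of 1 upwards (18.9% of all genes), and PLAT, A2M, SERPINE2 and ANXA2 downwards (21.3%).

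Levels of different genes were compared after division by the length of the main transcript, as CPM per kb. In A375 si-NT cells the order was S100A10 (433 ± 5.96), ANXA2 (326 ± 4.07), SERPINE2 (178 ± 0.689), PLAUR (29.2 ± 1.11), PLAT (25.9 ± 0.802), PLAU (0.751 ± 0.0689), A2M (0.379 ± 0.135) and SERPINB2 (0.0885 ± 0.0238), as mean ± SD of CPM per kb. The samples of no 2 neighbours in this order overlapped. In 1205Lu si-NT cells SERPINE2 (687 ± 9.71) and ANXA2 (664 ± 11.3) led, followed by PLAT (320 ± 5.44), S100A10 (211 ± 4.92), PLAUR (44.4 ± 1.62), A2M (2.80 ± 0.0794), SERPINB2 (0.123 ± 0.0428) and PLAU (0.107 ± 0.0588). Here SERPINB2 and PLAU overlapped. PLAT, the main activator mRNA in both lines, thus ranked at place 3 in 1205Lu and 5 in A375. After silencing the order in A375 was as before, with ANXA2 (329 ± 5.93) close to S100A10 (344 ± 2.95), PLAT at 9.36 ± 1.16 and PLAU at 2.31 ± 0.234 CPM per kb. In 1205Lu si-FRA1 cells PLAT (150 ± 3.56) and S100A10 (137 ± 8.79) overlapped.

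**Figure D3:**
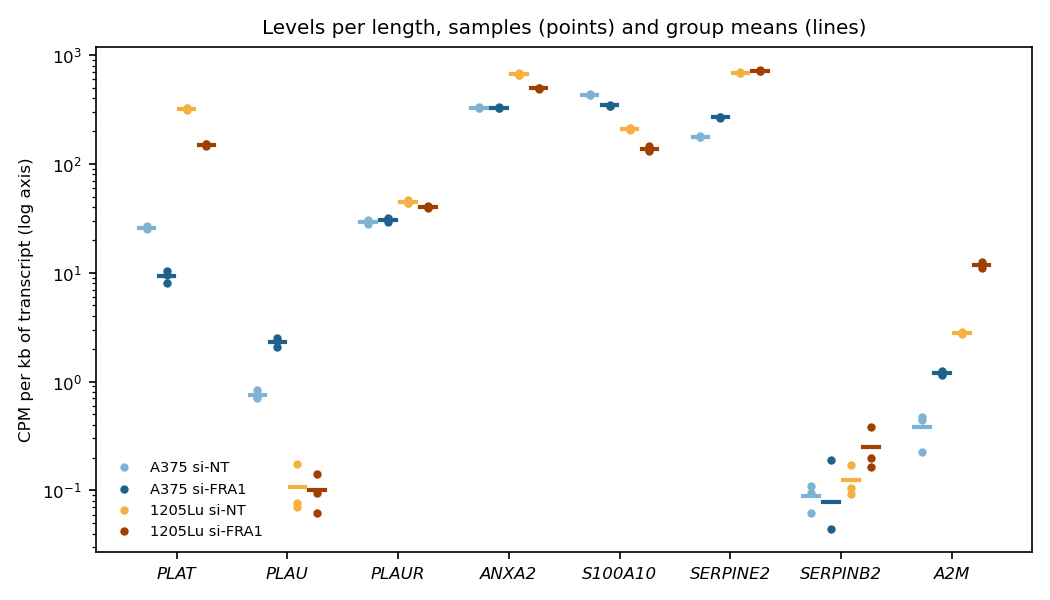
Level per length of the 8 genes (CPM per kb of main transcript, log axis) in the 4 groups. Points are samples and lines group means; the A375 si-FRA1 sample with a SERPINB2 count of 0 has no point. S100A10, ANXA2 and SERPINE2 lay above 100 CPM per kb in all groups, and PLAU and SERPINB2 below 3 CPM per kb.

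The pattern of each member over the 12 samples was compared with that of 9664 genes of at least 10 CPM on average, by Pearson's r of log2 CPM. The samples share 2 cell lines and 2 treatments, so that many genes follow the same steps, and r is a description here. The genes most like PLAT were AFAP1L1, KCNMA1 and JUN (r of 0.999 each). JUN encodes a partner of FRA1 in AP-1. Those most like SERPINE2 were DST, SPARC and SLC5A3 (r of 0.999 each). Beside ANXA2 stood NRXN3 (0.998), GUCD1 and MYO5A (0.995 each), and beside S100A10 stood ARHGEF28, DSP (0.997 each) and TOP2A (0.996). PLAUR was closest to RNF141 (0.992), PERP and PPFIBP1 (0.989 each), and A2M to RSRC2 (0.993), LGMN (0.991) and DHRS3 (0.990).

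A list of 25 other genes of the plasminogen system (the zymogen, further receptors, inhibitors, clearance receptors and enzymes that activate the precursors) was read beside the members, and 24 were analysed here. In A375, 4 of the 15 tested rose and 4 fell, and in 1205Lu 3 of 13 rose and 3 fell. These shares are near those of all genes, and the median log2 fold change was 0.02 in A375 and -0.05 in 1205Lu. Past a log2 fold change of 1 were SERPINA5 and VTN in A375, both at low counts. SERPINA5, protein C inhibitor, which also inhibits urokinase, had 6, 10 and 2 counts with si-NT and 58, 29 and 28 with si-FRA1, a log2 fold change of 2.44 (SE 0.47, adjusted p = 1.0e-04). VTN, vitronectin, a ligand of the urokinase receptor, had 6, 21 and 6 counts and 41, 38 and 10 counts, with overlapping groups and a log2 fold change of 1.24 (SE 0.51, adjusted p = 0.046).

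The other called genes of that list, named after their values were seen, were smaller changes. LRP1, the endocytic receptor that clears activator and inhibitor complexes, went from 441 ± 4.63 to 267 ± 4.53 CPM in A375, a log2 fold change of -0.73 (SE 0.022, adjusted p = 1.6e-18). In 1205Lu it went from 150 ± 1.49 to 166 ± 2.56 CPM, with a log2 fold change of 0.13 (SE 0.027, adjusted p = 7.9e-04). The directions were opposite, and the difference was -0.86 on the log2 scale (A375 minus 1205Lu, SE 0.033, adjusted p = 2.1e-16). SERPINB8, an intracellular serpin, likewise fell in A375, with a log2 fold change of -0.73 (SE 0.088, adjusted p = 2.0e-07), and rose in 1205Lu, with one of 0.48 (SE 0.046, adjusted p = 3.3e-08). Its difference was -1.22 on the log2 scale (A375 minus 1205Lu, SE 0.088, adjusted p = 3.2e-11). CTSL (log2 fold change 0.64) and LRPAP1 (0.43) rose in A375 and CTSB (0.19) in 1205Lu. VLDLR fell in both lines (-0.62 and -0.46), ENO1, a plasminogen receptor, in both (-0.09 and -0.39), and SERPINB6 in 1205Lu (-0.26).

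FRA1 Cut&Run placed peaks at 7 of the 8 genes: 5 at PLAT, 3 each at PLAU, PLAUR and SERPINB2, 10 at ANXA2, 7 at S100A10 and 4 at SERPINE2. A2M had none, also within 50 kb. Of the 35, 20 had an annotated start of the member within 3 kb. Totals in peaks lay between 3354095 and 5316527 for FRA1 and at 383994 for IgG in A375, and between 583750 and 897407 and at 314569 in 1205Lu. Replicates 2 and 3 of 1205Lu FRA1 did not differ beyond the sampling noise (a chi-square of 1.01 for each degree of freedom over 10418 peaks, against 1.49 and 1.64 for the other pairs of that group) and were counted as 1 sample.

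A peak was counted as enriched when no FRA1 sample was under 10 counts or under 4 times the sum of 1 and the IgG count, with no scaling and no p-value, since there was 1 IgG sample per line. By this rule 29 of the 35 were enriched in A375, beside 57.4% of all consensus peaks, and 5 in 1205Lu, beside 7.09%, the 5 also being enriched in A375. The rule moves with depth, as FRA1 totals in A375 were 8.73 to 13.8 times that of IgG and in 1205Lu 1.86 to 2.85 times. Scaled to equal totals, 1 member peak was enriched in A375 and 2 in 1205Lu (1.75% and 2.85% of all peaks). Without 1205Lu FRA1 replicate 1, the shallowest library, 11 rather than 5 were enriched there.

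**Figure D4:**
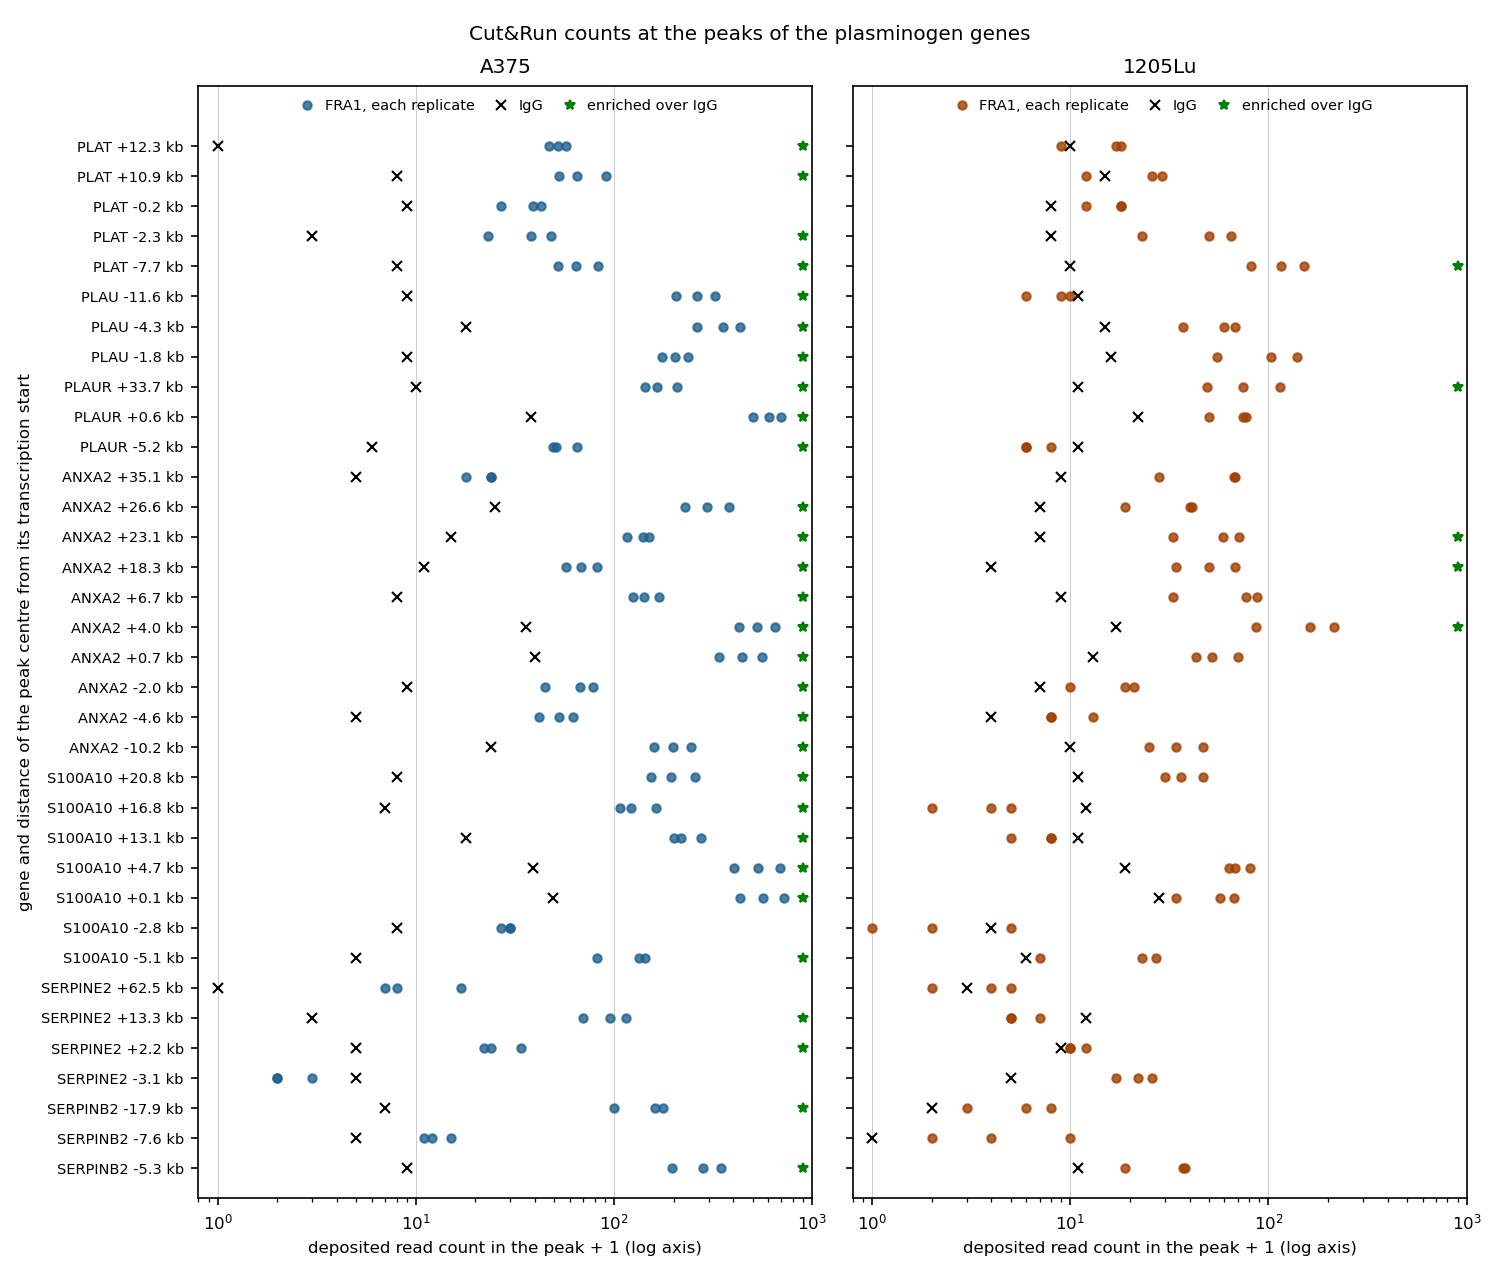
Deposited read count plus 1 (log axis) in each of the 35 peaks for the 3 FRA1 replicates (circles) and IgG (crosses), A375 on the left and 1205Lu on the right. Rows give the gene and the distance of the peak centre from its main transcription start, and stars mark the 29 and 5 peaks counted as enriched. The counts were lower in 1205Lu at most peaks, in a shallower set of libraries.

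Counts were compared between the lines with edgeR on TMM-scaled counts, as A375 minus 1205Lu, where the median over all peaks tested was 0.24 on the log2 scale. Of the 35 member peaks, 8 had more FRA1 signal in A375, beside 29% of 53300 peaks, 15 had more in 1205Lu, beside 24.3%, and 12 were not called. The split depends on the scaling: it was 12 and 13 with total counts, 5 and 13 with DESeq2, and 28 and 3 with no scaling, where the median of all peaks was 2.94. With no scaling 11 of the 15 peaks with more signal in 1205Lu turned, and those at PLAT -2.3 and -7.7 kb, ANXA2 35.1 kb and SERPINE2 -3.1 kb (distance from the main start) did not. Of those that did not turn, the peak at PLAT -2.3 kb was no longer called (edgeR with no scaling, -0.35, adjusted p = 0.34). All other directions in the sentences that follow are on the TMM scale, and counts are given as deposited, for replicates 1, 2 and 3. Unlike the main fit, the fits that left out 1 sample kept replicates 2 and 3 of 1205Lu FRA1 separate. Without 1205Lu replicate 1, only these samples, counted as 1 above, were left for that line. For single peaks, only log2 differences are therefore given from that fit.

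At PLAT all 5 peaks had more signal in 1205Lu on the TMM scale, and that line had the higher PLAT mRNA. The 3 at the start and in introns turned with no scaling. None of these was enriched over IgG in 1205Lu, and at both intronic peaks replicate 1 lay below IgG. IgG was left out of the fit, so these differences do not measure signal over IgG. The peak 7.7 kb upstream of the start (chr8:42214856-42215727) had 51, 82 and 63 FRA1 counts (IgG 7) in A375 and 81, 150 and 115 (IgG 9) in 1205Lu. It was enriched in both lines, with a log2 difference of -3.48 (SE 0.19, adjusted p = 1.6e-13). The peak 2.3 kb upstream (chr8:42209416-42210358) had 22, 47 and 37 FRA1 counts (IgG 2) in A375 and 22, 64 and 49 (IgG 7) in 1205Lu. Its log2 difference was -3.01 (SE 0.26, adjusted p = 5.7e-10), and with no scaling -0.35, not called. The peak over the start (chr8:42207266-42208180) had 26, 42 and 38 FRA1 counts (IgG 8) in A375 and 11, 17 and 17 (IgG 7) in 1205Lu, and was enriched in neither line. The intronic peaks at 10.9 kb (chr8:42196029-42197362) and 12.3 kb (chr8:42194979-42195487) lay near internal annotated starts. They had 52, 90 and 64 FRA1 counts (IgG 7) in A375 and 11, 25 and 28 (IgG 14) in 1205Lu, and 46, 56 and 51 FRA1 counts (IgG 0) in A375 and 8, 16 and 17 (IgG 9) in 1205Lu, and were enriched in A375. The call at 12.3 kb was lost with total counts and with DESeq2. It was also lost without A375 replicate 2 or 3, or 1205Lu replicate 2 or 3 (log2 differences from -0.71 to -0.55).

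At PLAU the 3 peaks, each with 1 AP-1 site printed above, lay upstream and were enriched in A375. The distal peak at -11.6 kb (chr10:73898951-73900056) had 205, 324 and 262 FRA1 counts (IgG 8) in A375 and 8, 5 and 9 (IgG 10) in 1205Lu. In 1205Lu all 3 replicates were below IgG, and the log2 difference was 2.44 (SE 0.28, adjusted p = 5.2e-08). The middle peak at -4.3 kb (chr10:73905846-73907780) had 262, 432 and 352 FRA1 counts (IgG 17) in A375 and 36, 67 and 59 (IgG 14) in 1205Lu, with a log2 difference of 0.02 (SE 0.20, adjusted p = 0.94) and a 95% interval from -0.40 to 0.44. The proximal peak at -1.8 kb (chr10:73908670-73909906), which holds an alternative start and UTR exon, had 173, 235 and 201 FRA1 counts (IgG 8) in A375 and 54, 139 and 102 (IgG 15) in 1205Lu. Its log2 difference was -1.56 (SE 0.21, adjusted p = 8.7e-07), in the opposite direction to the distal peak, although with no scaling this turned to 1.04. The PLAU mRNA, higher in A375, thus stood beside 1 peak with more signal in A375, 1 with more in 1205Lu and 1 not called.

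At PLAUR the peak over the start (chr19:43668359-43670853), which covers the first exon and the site 183 bases upstream, had 502, 692 and 607 FRA1 counts (IgG 37) in A375 and 49, 76 and 73 (IgG 21) in 1205Lu. It was among the strongest member peaks in A375, and its log2 difference was 0.52 (SE 0.21, adjusted p = 0.036). This call was lost with DESeq2, and the log2 difference was 0.23 without 1205Lu FRA1 replicate 1. The peak 5.2 kb upstream (chr19:43674875-43675879) had 48, 64 and 50 FRA1 counts (IgG 5) in A375 and 7, 5 and 5 (IgG 10) in 1205Lu, and was not called. A further peak lay 9168 bases beyond the end of the gene and 33.7 kb from its start (chr19:43635952-43636927), and overlapped CADM4, which has a start within 3 kb. This peak had 142, 206 and 163 FRA1 counts (IgG 9) in A375 and 48, 113 and 73 (IgG 10) in 1205Lu. It was enriched in both lines, with a log2 difference of -1.52 (SE 0.20, adjusted p = 4.9e-07).

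At ANXA2, 9 of 10 peaks were enriched in A375 and 3 in 1205Lu. The strongest in both lines lay 4.0 kb inside the gene (chr15:60392697-60395204), over coding and UTR exons, with 426, 645 and 523 FRA1 counts (IgG 35) in A375 and 86, 213 and 161 (IgG 16) in 1205Lu. Its log2 difference was -0.80 (SE 0.22, adjusted p = 0.0031), and -1.27 without 1205Lu FRA1 replicate 1. The peak over the main start (chr15:60395763-60398762), with the site 124 bases upstream, had 336, 557 and 443 FRA1 counts (IgG 39) in A375 and 42, 51 and 69 (IgG 12) in 1205Lu. It was not called between lines, at 0.35 (SE 0.20, adjusted p = 0.14), nor with the 6 FRA1 samples kept separate (0.35, adjusted p = 0.072). It was called with total counts, and without any 1 of the A375 replicates or without 1205Lu replicate 3. Over the 6 fits that left out 1 sample the log2 difference ranged from 0.10 to 0.58. Enriched in both lines were also the peaks at 18.3 kb (chr15:60379396-60380031) and 23.1 kb (chr15:60374385-60375374). The former, in an intron, had 56, 81 and 67 FRA1 counts (IgG 10) in A375 and 33, 67 and 49 (IgG 3) in 1205Lu, and the latter, at an internal start, had 115, 139 and 150 FRA1 counts (IgG 14) in A375 and 32, 70 and 58 (IgG 6) in 1205Lu. Their log2 differences were -2.22 (SE 0.20, adjusted p = 1.5e-09) and -1.31 (SE 0.21, adjusted p = 1.2e-05).

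The other ANXA2 peaks were enriched in A375 alone or in neither line. At an internal start 6.7 kb from the main one (chr15:60390705-60391967) the peak had 123, 168 and 140 FRA1 counts (IgG 7) in A375 and 32, 87 and 76 (IgG 8) in 1205Lu, with a log2 difference of -1.49 (SE 0.22, adjusted p = 3.5e-06). The intronic peak at 26.6 kb (chr15:60370711-60372144) had 226, 379 and 294 FRA1 counts (IgG 24) in A375 and 18, 39 and 40 (IgG 6) in 1205Lu. It was the ANXA2 peak with more signal in A375, at 0.54 (SE 0.22, adjusted p = 0.047), a call lost with DESeq2. The log2 difference was 0.14 without 1205Lu FRA1 replicate 1. Upstream of the main start, the peaks at -2.0 kb (chr15:60399613-60400406), -4.6 kb (chr15:60402242-60402921) and -10.2 kb (chr15:60407077-60409303) had 44, 77 and 66 FRA1 counts (IgG 8) in A375 and 9, 18 and 20 (IgG 6) in 1205Lu, then 41, 61 and 52 FRA1 counts (IgG 4) in A375 and 7, 12 and 7 (IgG 3) in 1205Lu, and then 159, 245 and 197 FRA1 counts (IgG 23) in A375 and 24, 46 and 33 (IgG 9) in 1205Lu. Of these, the peak at -2.0 kb was called, at -0.71 (SE 0.27, adjusted p = 0.033), but not with total counts or with DESeq2. Nor was it called without any 1 of the A375 replicates, or without 1205Lu replicate 2 or 3 (the last giving -0.47, adjusted p = 0.25). Without 1205Lu replicate 1 its log2 difference was -1.07, and that of the peak at -10.2 kb was -0.44. The peak at 35.1 kb (chr15:60362450-60363240), over a non-coding exon, had 17, 23 and 23 FRA1 counts (IgG 4) in A375 and 27, 66 and 67 (IgG 8) in 1205Lu. Its raw counts were higher in 1205Lu despite the shallower libraries, and the log2 difference was -3.99 (SE 0.27, adjusted p = 6.7e-12).

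At S100A10 no peak was enriched in 1205Lu and 6 of 7 were in A375. The widest, over the start (chr1:151991894-151995634), also overlapped another annotated gene with a start within 3 kb. This peak had 430, 722 and 566 FRA1 counts (IgG 48) in A375 and 33, 66 and 56 (IgG 27) in 1205Lu. Its log2 difference was 0.81 (SE 0.22, adjusted p = 0.0031), a call lost with DESeq2, and 0.44 without 1205Lu FRA1 replicate 1. The intronic peak at 4.7 kb (chr1:151988053-151990247) had 401, 684 and 534 FRA1 counts (IgG 38) in A375 and 62, 80 and 67 (IgG 18) in 1205Lu, and was not called, but was with total counts and without A375 replicate 1 (0.41, adjusted p = 0.024). The peaks downstream of the gene at 13.1 kb (chr1:151980167-151981370) and 16.8 kb (chr1:151976525-151977563) had 199, 274 and 218 FRA1 counts (IgG 17) in A375 and 7, 7 and 4 (IgG 10) in 1205Lu, and 106, 162 and 121 FRA1 counts (IgG 6) in A375 and 3, 1 and 4 (IgG 11) in 1205Lu. In 1205Lu both stayed below IgG. Each held an AP-1 site within 100 bp of its centre, and the log2 differences were 2.55 (SE 0.30, adjusted p = 8.6e-08) and 2.88 (SE 0.38, adjusted p = 4.5e-07). The peaks at 20.8 kb (chr1:151972570-151973572), -2.8 kb (chr1:151996361-151996914) and -5.1 kb (chr1:151998705-151999211) were not called. They had 153, 256 and 192 FRA1 counts (IgG 7) in A375 and 29, 35 and 46 (IgG 10) in 1205Lu, then 26, 29 and 29 FRA1 counts (IgG 7) in A375 and 0, 4 and 1 (IgG 3) in 1205Lu, and then 81, 142 and 133 FRA1 counts (IgG 4) in A375 and 6, 22 and 26 (IgG 5) in 1205Lu. The first had a log2 difference of -0.48 without 1205Lu replicate 1. The second was called with total counts and without 1205Lu replicate 2 (3.00, adjusted p = 0.013). S100A10, like PLAU, had the higher mRNA in A375. It had 3 peaks with more signal in A375 and none with more in 1205Lu, whereas the PLAU peaks were split.

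At SERPINE2 no peak covered the main start. An intronic peak at 13.3 kb (chr2:224025532-224026456), with 2 AP-1 sites, had 69, 114 and 94 FRA1 counts (IgG 2) in A375 and 6, 4 and 4 (IgG 11) in 1205Lu. It was enriched in A375 and below IgG in 1205Lu, with a log2 difference of 1.58 (SE 0.35, adjusted p = 4.0e-04). The peak at 2.2 kb (chr2:224036717-224037547) had 21, 23 and 33 FRA1 counts (IgG 4) in A375 and 11, 9 and 9 (IgG 8) in 1205Lu, and its log2 difference was -1.30 (SE 0.38, adjusted p = 0.0052), with 1205Lu counts near IgG. The peak at -3.1 kb (chr2:224042128-224042567) had 1, 1 and 2 FRA1 counts (IgG 4) in A375 and 16, 25 and 21 (IgG 4) in 1205Lu. It was the member peak with the largest log2 difference, -6.47 (SE 0.49, adjusted p = 3.1e-11), yet not enriched in either line by the rule, as 1205Lu replicate 1 was under 4 times the sum of 1 and the IgG count. The peak at 62.5 kb had at most 16 counts in any sample.

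At SERPINB2, whose mRNA was near the detection limit in all groups, 2 of 3 peaks were enriched in A375 and none in 1205Lu. The peak at -5.3 kb (chr18:63881644-63883124), in an annotated intron and with 2 AP-1 sites, had 196, 347 and 281 FRA1 counts (IgG 8) in A375 and 18, 37 and 36 (IgG 10) in 1205Lu. It was not called between lines, at 0.49 (SE 0.22, adjusted p = 0.066), but was with total counts and with the 6 FRA1 samples kept separate. It was also called without any 1 of the A375 replicates, or without 1205Lu replicate 2 or 3. Without 1205Lu replicate 1 the log2 difference was 0.12. The peak at -17.9 kb (chr18:63869380-63870310), within 3 kb of an alternative start, had 99, 175 and 160 FRA1 counts (IgG 6) in A375 and 5, 2 and 7 (IgG 1) in 1205Lu. Its log2 difference was 2.23 (SE 0.33, adjusted p = 3.5e-06). The peak at -7.6 kb had at most 14 counts in any sample, and was not called, but was without 1205Lu replicate 3. Without 1205Lu replicate 1 its log2 difference was -1.53. A2M, the member with the largest rise in 1205Lu, was the one without a peak.

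**Figure D5:**
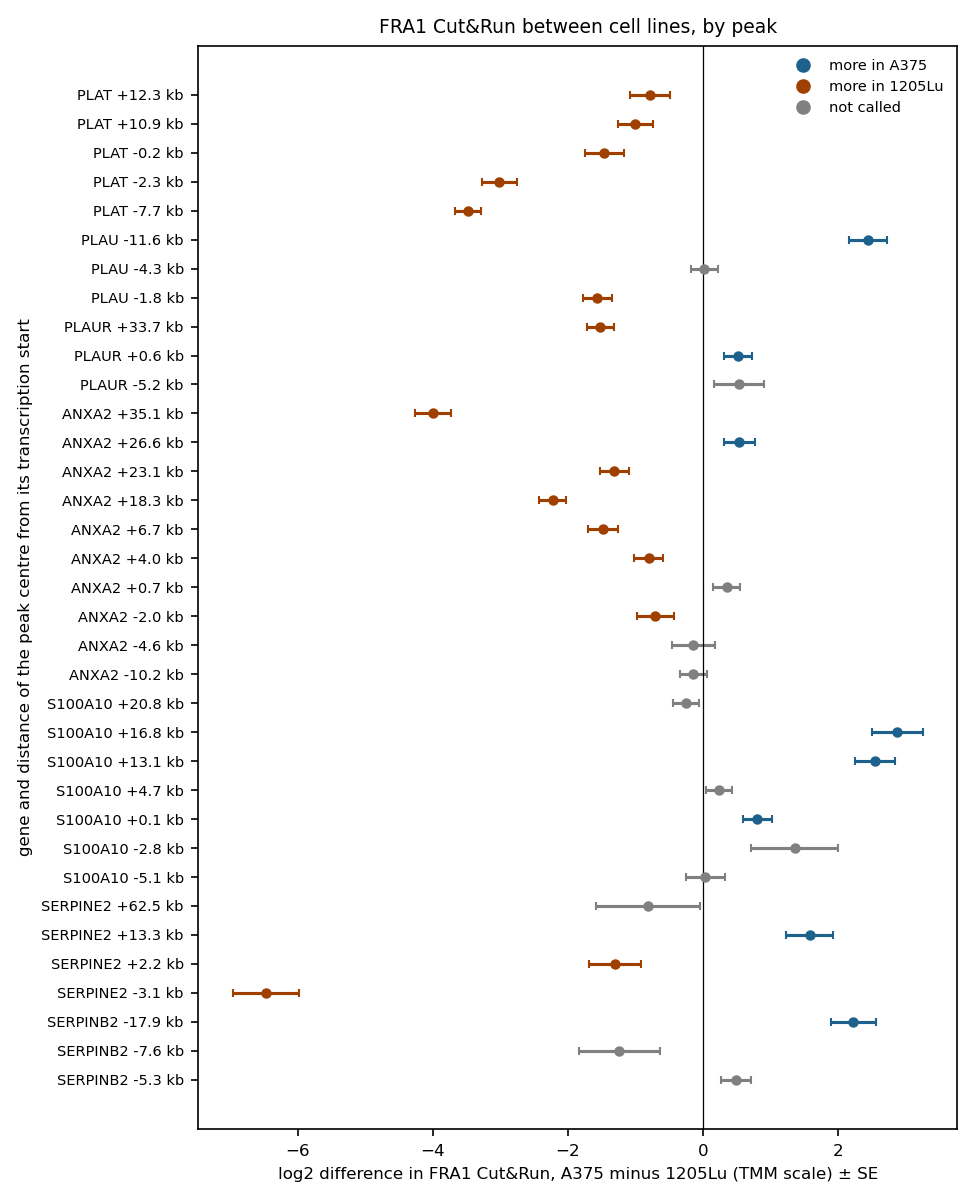
Log2 difference in FRA1 Cut&Run between the cell lines (A375 minus 1205Lu, TMM scale, with SE) at each of the 35 peaks, in rows by gene and distance of the peak centre from the main transcription start. All 5 PLAT peaks lay below 0 and 3 S100A10 peaks were called above 0; with no scaling 11 of the 15 peaks called below 0 turn.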

How the data were processed

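RNA-seq (12 samples) and Cut&Run (8 samples) were analysed from 2 deposited tables. For RNA-seq, the authors removed adapters with cutadapt 1.8.1, aligned to GRCh38 with STAR 2.7.7a and used RSEM 1.3.0 with a Gencode gene model to estimate each gene's expected count, deposited as a whole number and not normalized. For Cut&Run, the authors aligned with Bowtie2 2.4.1, called peaks with MACS2 and deposited raw read counts per consensus peak, and the use of single or pooled samples for calling is not given in the sources used here. All counts entered the tests as deposited. The study's methods name DESeq2 1.36.0, which was an alternative here (1.42.0).

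All comparisons used edgeR 4.0.16 under R 4.3.3 (filterByExpr, TMM, glmQLFit and glmQLFTest) over all features, with Benjamini-Hochberg adjustment. Values per sample are CPM on TMM library sizes over all 12 samples, while each cell line was fitted alone. The SE is the log2 estimate divided by the root of the F statistic. Depth of 20573412 to 32518903 counts and a biological coefficient of variation of 4.51% (A375) and 4.20% (1205Lu) set the precision. Starts, exons and lengths were taken from GENCODE 44, and motifs were searched as exact letters with Python 3.11.15. A feature within 10 kb of the gene body belonged to a gene. Cut&Run reads carry no molecular identifiers in the sources used here, so counts are not independent molecules. The scripts were tested on simulated data.

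The members and lists were chosen with earlier results of these data known. Named were FOSL1, the 8 members, genes of the wider list past a log2 fold change of 1, overlapping genes and pseudogene copies with counts, the 3 genes most like each member (of at least 10 CPM in a group), and the member peaks. The other called genes of the wider list were named after their values were seen. No set test was run. Alternatives were other normalizations, filters and call rules, a joint fit, the replicate number as a block, lower and higher limits against IgG, windows (3 and 50 kb), other scaling of the peak counts, and each sample left out in turn.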

Additional observations from a re-analysis of the deposited data

Results flagged for a closer look

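For 6 of the 7 members tested, the response to FRA1 silencing differed between the cell lines by the test of the difference itself (edgeR, adjusted p under 0.05, over 19452 genes). On the log2 scale, as the response in A375 minus that in 1205Lu, the difference was 1.70 for PLAU, 0.52 for SERPINE2, 0.43 for ANXA2, 0.29 for S100A10, 0.20 for PLAUR and -0.36 for PLAT. The 5 positive differences stood beside 15.3% of all genes tested, and the 1 negative beside 16.6%. For PLAU and PLAUR the call did not hold in every fit, as given with their values. PLAU passed the filter on low counts through A375 alone. Groups of 3 samples were not tested for a sample far from the others.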

How the results depend on the processing

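The calls of PLAT, A2M, SERPINE2 and S100A10 in both lines, of PLAU in A375 and of ANXA2 in 1205Lu were made in each alternative fit in which they were tested, at the adjusted p limit alone. Over single members and comparisons, 339 values kept their side of the threshold and 11 did not, the latter all in PLAUR, PLAU and the A2M difference between lines, and none of the called values reversed. With a log2 fold change over 1 also required, SERPINE2, S100A10, ANXA2 and PLAUR were lost and the members called numbered 3 in A375, 2 in 1205Lu and 1 for the difference between the lines, and the other plasminogen genes 2 in A375 and 0 in 1205Lu (edgeR, where an unadjusted p also left 0, as did DESeq2). Leaving out 1 sample at a time gave 5 members in A375, 5 to 6 in 1205Lu, 4 to 6 for the difference and 7 at baseline, and 7 to 9 and 5 to 7 other genes. A filter of at least 10 counts in every sample left PLAU untested between the lines.

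With equal totals, 1 of the 35 member peaks was enriched over IgG in A375 and 2 in 1205Lu, beside 1.75% and 2.85% of all peaks. Within 50 kb, 50 of 69 peaks were enriched in A375. In 1205Lu, 17 of the 35 were enriched at 2 times the IgG count, 2 at 8 times and 5 to 11 when a replicate was left out. Within 3 kb, 3 of 27 peaks were enriched there. Peaks called between the lines numbered 39 of 69 within 50 kb, and 23 to 25 of the 35 when a replicate was left out.

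A block for the replicate number gave 5, 6, 6 and 7 members called in A375, in 1205Lu, for the difference and at baseline, and 8 and 6 other genes, so it changed no count there. For the peaks it was fitted with all 6 FRA1 samples separate and called 23, against 24 in that fit without it. Same-numbered samples deviated together with correlations of 0.105, 0.057 and 0.039 in A375 and of -0.099, -0.031 and -0.077 in 1205Lu, so the numbers were not taken to pair them. PLAU in 1205Lu and SERPINB2 in both lines had at most 15 counts in any sample, too few to test, and the Cut&Run totals were lower in 1205Lu.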
